A study of Mus musculus with 6 samples.

Results

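The CpG islands of 5 imprinted chromosome windows were compared between Mdr2-KO and Mdr2-/+ livers. A window took every array probe whose start lay within given bounds in the mm8 build of the mouse genome, and no measured value was used to choose a probe. The windows ran from 142200000 to 143500000 on chromosome 7, around H19, Igf2, Kcnq1ot1 and Cdkn1c, and from 173700000 to 174400000 on chromosome 2, around Gnas and Nespas. On chromosome 6 they ran from 30500000 to 30900000, around Mest, and from 4500000 to 4900000, around Peg10 and Sgce, and on chromosome 11 from 11700000 to 12100000, around Grb10. They held 267 of the 88737 probes on the array. Of these, 263 probes formed 36 of the 13821 CpG islands (CGIs), a CGI being defined as 3 or more successive probes whose starts followed each other within 500 bp, and 4 probes lay in 2 shorter runs. The windows were named for their genes when they were chosen, but no file or table ties a probe to a gene in this build, so each CGI is given here by its window and position.

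Total DNA was taken from whole livers of 12-month-old males of the FVB strain, 3 Mdr2-KO mice (FVB.129P2-Abcb4tm1Bor) and 3 heterozygous Mdr2-/+ mice, bred from the knockout and FVB/NJ, as controls. Mdr2 (Abcb4) is the canalicular transporter of phosphatidylcholine, and its loss gives a chronic cholestatic hepatitis, so that the question is which CGIs differ in methylation between an inflamed and a healthy liver. Methylated DNA was pulled down with an antibody against 5-methylcytosine (MeDIP), labelled with Cy5 and hybridised with Cy3-labelled input DNA of the same liver to a CGI array, 1 array for each mouse. The control mice carry a single intact Mdr2 copy, and whole liver is a mixture of hepatocytes and other cells, so a change in methylation within a cell type and a change in the mixture cannot be told apart.

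Imprinted genes are expressed from the allele of a single parent. Many are governed in clusters by a CpG-rich control region that carries DNA methylation on the maternal or on the paternal allele from the germ line onward, and that keeps this mark in somatic tissues such as the liver. The region upstream of H19 is methylated on the paternal allele, whereas those at Kcnq1ot1, Nespas, Mest, Peg10 and Grb10 are methylated on the maternal allele. MeDIP reads both alleles together, and its signal rises with the number of methylated CpGs on a fragment, so the ratio is not a share of methylated alleles, and the levels of different CGIs are set side by side here as MeDIP signal only.

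The stretches below show how unequal the count of CG in the reference sequence, methylated or not, is before genes that the windows were chosen for. Of the 10 genes, 5 had an entry in the RefSeq promoter table (GRCm38.p6), namely Igf2, Kcnq1ot1, Gnas, Mest and Grb10. For genes with several entries, the entry with the most CG was taken. Of each, the 250 bases before the transcript start are printed from 5′ to 3′, with the motif CG, which reads the same on both strands, in capitals. Among all 32851 promoter entries of this length, each counted on its own and not picked for CG, 92.1% hold at least 1 CG and the median count is 6. Kcnq1ot1, a noncoding RNA that silences its neighbours in cis, had 5 CG (chr7:143296548-143296797, minus strand). Igf2, a fetal growth factor, had 22 (chr7:142658805-142659054, minus strand). Gnas, the alpha subunit of the stimulatory G protein, had 29 (chr2:174329756-174330005, plus strand), and Mest, an enzyme of the alpha/beta hydrolase fold, had 14 (chr6:30737800-30738049, plus strand). Grb10, an adaptor that dampens insulin receptor signalling, had 40 (chr11:12037421-12037670, minus strand), a count reached by 1.31% of all entries. That share sets the richer of 2 Grb10 entries against unpicked ones. These positions are of another build than the array, and no probe is placed on them.
Igf2: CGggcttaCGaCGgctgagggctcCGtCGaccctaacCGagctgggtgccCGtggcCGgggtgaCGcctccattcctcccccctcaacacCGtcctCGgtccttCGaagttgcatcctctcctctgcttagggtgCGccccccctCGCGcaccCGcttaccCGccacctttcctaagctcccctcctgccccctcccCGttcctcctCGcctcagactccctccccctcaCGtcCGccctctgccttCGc
Kcnq1ot1: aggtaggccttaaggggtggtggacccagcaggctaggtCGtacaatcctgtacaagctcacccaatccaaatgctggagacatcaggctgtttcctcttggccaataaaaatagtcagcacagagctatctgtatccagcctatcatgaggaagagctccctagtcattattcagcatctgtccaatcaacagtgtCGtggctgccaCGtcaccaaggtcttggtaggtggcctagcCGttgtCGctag
Gnas: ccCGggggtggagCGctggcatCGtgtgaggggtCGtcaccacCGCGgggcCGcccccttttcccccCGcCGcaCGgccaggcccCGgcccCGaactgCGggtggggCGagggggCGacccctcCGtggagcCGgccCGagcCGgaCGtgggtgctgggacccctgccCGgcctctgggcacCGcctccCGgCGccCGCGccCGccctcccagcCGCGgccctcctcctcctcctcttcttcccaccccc
Mest: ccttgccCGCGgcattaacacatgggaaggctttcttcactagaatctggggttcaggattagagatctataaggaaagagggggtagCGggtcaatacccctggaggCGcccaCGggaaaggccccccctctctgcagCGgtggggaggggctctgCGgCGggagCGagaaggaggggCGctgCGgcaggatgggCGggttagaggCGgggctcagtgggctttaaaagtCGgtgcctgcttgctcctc
Grb10: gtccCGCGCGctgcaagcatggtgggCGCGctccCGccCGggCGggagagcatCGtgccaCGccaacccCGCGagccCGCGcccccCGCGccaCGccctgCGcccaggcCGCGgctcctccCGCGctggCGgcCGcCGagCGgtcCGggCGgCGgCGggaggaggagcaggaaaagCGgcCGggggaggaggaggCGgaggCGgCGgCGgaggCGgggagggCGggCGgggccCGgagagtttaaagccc

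Measurement in the windows was well above background. The MeDIP signal passed the scanner software's background test at 88.8% to 93.6% of the window probes of an array and the input signal at 89.1% to 95.1%, and no window probe was saturated or an outlier spot. All values that follow are log2 ratios of MeDIP over input, centred on the median of each array, and the value of a CGI is the mean over its probes. The 6 arrays lay on 3 slides. Replicate 1 of both genotypes shared a slide, Mdr2-/+ replicates 2 and 3 shared another, and Mdr2-KO replicates 2 and 3 shared another, so that genotype and slide cannot be told apart for these 4 arrays. The difference between the arrays of the shared slide is therefore given beside the main results as a value without a test. Mdr2-/+ replicate 1 had the widest spread of log2 ratios over all its probes (SD 1.83, against 1.52 to 1.75 on the other arrays), and it was the highest liver at most CGIs of high level.

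The windows held CGIs of very different MeDIP level. The level of a CGI was the mean of the genotype means, and it was called when limma's treat test placed it more than 1 log2 unit from the array centre at an adjusted p under 0.05. By this test 14 of the 36 CGIs lay above, where 14.3% of all CGIs did, and 0 lay below (2.1% of all CGIs). The median level was 0.48 in the windows and -0.12 over all CGIs. The Gnas window had the most CGIs above in level, 6 of 12, followed by 4 of 13 in the H19 to Cdkn1c window, 2 of 4 in the Mest window and 1 each in the Peg10 and Grb10 windows. In the Gnas window the 6 CGIs above had levels of 3.22 to 4.40 and the other 6 had levels of -0.96 to 0.44, with no CGI in the gap.

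**Figure D1:**
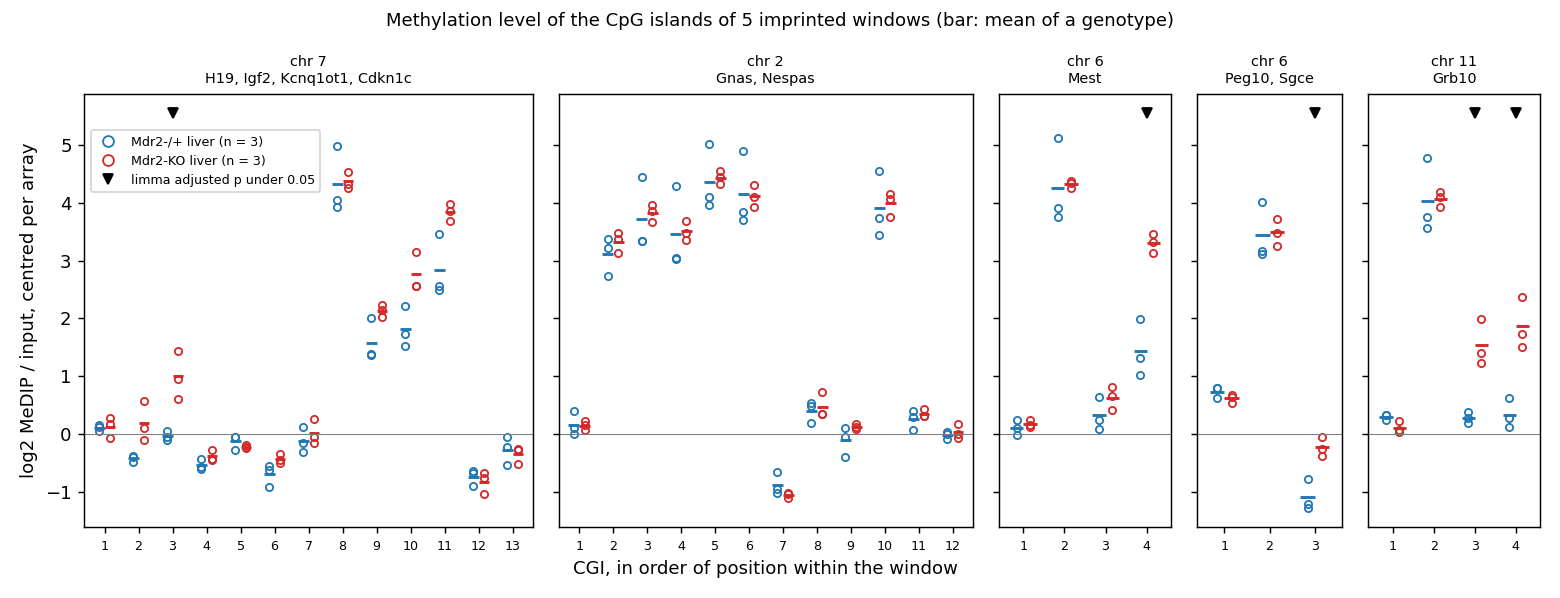
Centred log2 ratio of MeDIP over input (y axis) at each of the 36 CGIs, numbered by position within their window (x axis), with a circle for each liver, a bar for the mean of each genotype and a triangle at the 5 CGIs called higher in Mdr2-KO livers. Most CGIs sit either near 0 or between 3 and 5, and the circle of Mdr2-/+ replicate 1 is the highest at most of the latter.

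The CGI with the highest level of each window exceeded between 92.3% and 95.6% of all CGIs of the array. In the Gnas window it was chr2:173941465-173943988, a CGI of 21 probes, the most of any of the 36, with 5.02, 4.11 and 3.96 in Mdr2-/+ replicates 1 to 3 and 4.55, 4.44 and 4.32 in Mdr2-KO replicates 1 to 3. Its level of 4.40 exceeded 95.6% of all CGIs. In the H19 to Cdkn1c window chr7:143104693-143106020 had 4.98, 4.04 and 3.94 in Mdr2-/+ livers and 4.53, 4.32 and 4.26 in Mdr2-KO livers. At both CGIs the highest liver was Mdr2-/+ replicate 1, the lowest were the other Mdr2-/+ livers, and the Mdr2-KO livers lay between.

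The same order held in the other windows. In the Mest window chr6:30688022-30688551 had 5.12, 3.91 and 3.76 in Mdr2-/+ and 4.37, 4.34 and 4.26 in Mdr2-KO livers. In the Grb10 window chr11:11925467-11926345 had 4.77, 3.75 and 3.57 in Mdr2-/+ and 4.18, 4.10 and 3.92 in Mdr2-KO livers. In the Peg10 window, named for a gene of retrotransposon origin and for its neighbour epsilon-sarcoglycan (Sgce), chr6:4697308-4698444 had 4.01, 3.17 and 3.12 in Mdr2-/+ and 3.73, 3.26 and 3.49 in Mdr2-KO livers. The genotypes overlapped at all 5 CGIs, with genotype differences of 0.03 to 0.07, which became negative at each with quantile normalization.

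**Figure D2:**
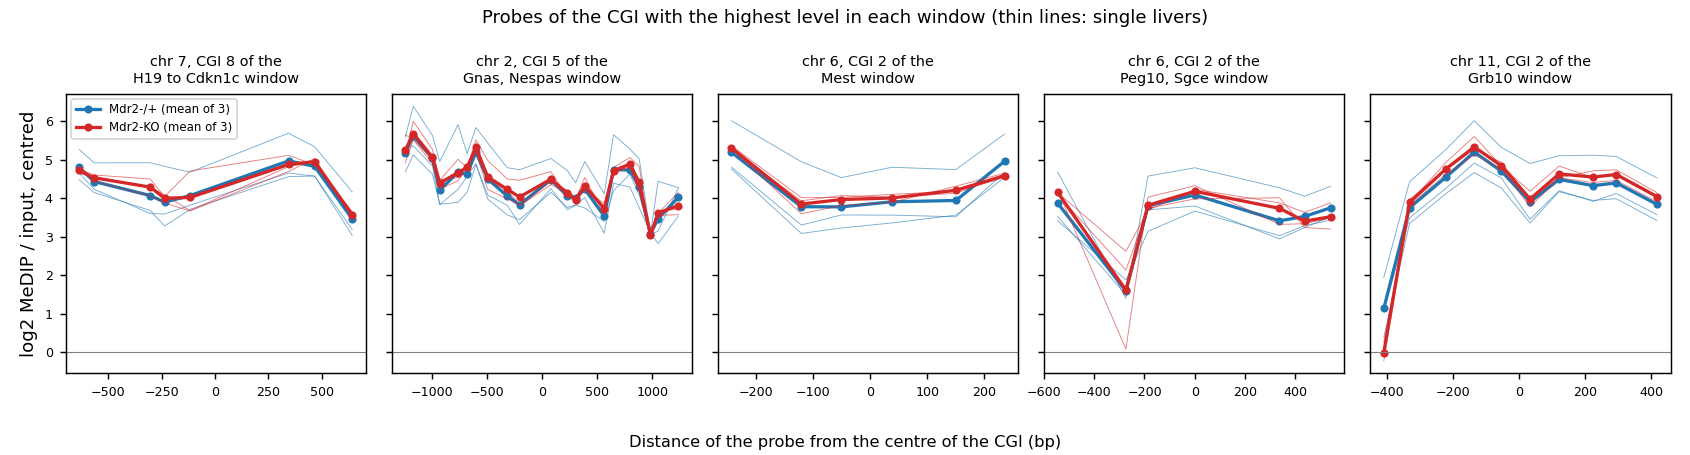
Centred log2 ratio (y axis) of each probe of the CGI with the highest level in each window against the distance of the probe from the centre of the CGI in bp (x axis), with thin lines for single livers and thick lines for the mean of 3 livers of a genotype. The genotype means lie close together along each of the 5 CGIs, whose levels run from 3.46 to 4.40.

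Along these CGIs the MeDIP ratio varied from probe to probe. In the Gnas window the probe levels of the 21-probe CGI ran from 3.06 to 5.66. In the Grb10 window 9 of the 10 probes stood high, and the probe at the start of the CGI had 1.14 in Mdr2-/+ and -0.01 in Mdr2-KO livers. That probe was not well above background in the MeDIP channel of any liver, so that these values only bound its level.

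CGIs of high and low level were neighbours in places. On chromosome 2 the CGI from 173970159 to 173972482 had a level of 4.13, and the next one, from 173973304 to 173974138, had -0.96, the lowest of the 36 and below all but 6.22% of all CGIs. The latter had -0.66, -1.03 and -0.94 in Mdr2-/+ livers and -1.02, -1.10 and -1.03 in Mdr2-KO livers. Every liver of either genotype was thus below its array centre there and far above it at the adjacent CGI. Where starts up to 1000 bp apart were joined, these neighbours became a single CGI of level 2.60. The lowest CGI of the H19 to Cdkn1c window, chr7:143311070-143312348, had -0.89, -0.64 and -0.67 in Mdr2-/+ and -0.67, -0.77 and -1.04 in Mdr2-KO livers. Of its 13 probes, 3 were not well above background in the MeDIP channel of any liver, so their values only bound its level. Neither genotype stood apart at either low CGI, with differences of -0.17 (95% interval -0.47 to 0.13) and -0.09 (-0.41 to 0.23).

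At 5 of the 36 CGIs limma (adjusted p under 0.05) called methylation higher in the Mdr2-KO group, and at 0 CGIs lower. Over all CGIs 4.28% were called higher and 0.217% lower. The 5 CGIs lay in 4 windows, 2 in the Grb10 window and 1 each in the H19 to Cdkn1c, Mest and Peg10 windows, and the Gnas window had none. At an unadjusted p under 0.05 there were 9 CGIs higher (14.8% of all CGIs) and 0 lower (5.51%). Livers of the genotypes did not overlap in value at 10 CGIs that were higher (15.9%) and at 1 that was lower (10.8%) in Mdr2-KO livers. A delta Z of 0.7 or more, the size threshold named in the study's methods, was reached by 3 CGIs (1.31%), and a delta Z of -0.7 or less by 0 (0.0362%).

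The largest difference was in the Mest window, at chr6:30888000-30889519, a CGI of 9 probes. It had 1.99, 1.02 and 1.31 in Mdr2-/+ replicates 1 to 3 and 3.33, 3.45 and 3.14 in Mdr2-KO replicates 1 to 3. All Mdr2-KO livers were well above all Mdr2-/+ livers, and they lay closer to each other. The mean was 1.44 ± 0.50 (SD, n = 3) in Mdr2-/+ and 3.31 ± 0.16 (SD, n = 3) in Mdr2-KO livers. The difference was 1.87 (SE 0.24, adjusted p = 0.00942 from limma), and it was 1.33 between the arrays of the shared slide. It was the only CGI both above in level and called, 1 of 14 in the windows against 8.65% of all CGIs above in level. Of the 22 CGIs not above in level 4 were called, against 3.55% of all such CGIs. Along this CGI, picked for its difference, all 9 probes had nonoverlapping values (14.7% of all probes were higher without overlap), with probe differences from 1.02 to 2.97. On the probe level limma called 6 of them higher (1.89% of all probes), and it called no window probe with loess, with normexp or with slide or replicate number as a block.

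The Grb10 window had a neighbouring pair of CGIs that rose together. At chr11:11937235-11938162, of 6 probes, Mdr2-/+ livers had 0.62, 0.12 and 0.27 and Mdr2-KO livers 1.72, 2.38 and 1.51. At chr11:11936447-11936713, of 3 probes, Mdr2-/+ livers had 0.29, 0.19 and 0.37 and Mdr2-KO livers 1.41, 2.00 and 1.22. At both, the Mdr2-/+ livers were near the array centre, Mdr2-KO replicate 2 was the highest liver and Mdr2-KO replicate 3 the lowest of its genotype, still clear of all controls. The differences were 1.54 (SE 0.23, adjusted p = 0.0158 from limma) and 1.26 (SE 0.20, adjusted p = 0.0166), and within the shared slide they were 1.11 and 1.12. Neither was above in level, and both were far below the level of 4.05 of the highest CGI of that window. The probe at the end of the CGI of 6 probes was not well above background in the MeDIP channel of any Mdr2-/+ liver, so its -0.82 there is only an upper bound, against 1.19 in Mdr2-KO livers. At the CGI of 3 probes the first had a difference of 2.25, from a mean of -1.34 in Mdr2-/+ livers. Its MeDIP signal was well above background in 4 of the 6 arrays. The others had differences of 0.69 and 0.84, from means of 1.11 and 1.08 in Mdr2-/+ livers.

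Smaller rises were called in the other windows. In the H19 to Cdkn1c window, which holds the growth factor gene Igf2 and the cyclin-dependent kinase inhibitor gene Cdkn1c, chr7:142473250-142473758 had 0.06, -0.05 and -0.10 in Mdr2-/+ and 0.95, 1.43 and 0.61 in Mdr2-KO livers. Its 4 probes averaged a difference of 1.03 (SE 0.20, adjusted p = 0.0311 from limma), with 0.90 on the shared slide. The probe at -34 bp from the centre had a difference of 2.07 and the others had 0.63 to 0.75, and values overlapped between the genotypes at 1 of the 4. In the Peg10 window chr6:4853618-4853936 had -0.78, -1.27 and -1.22 in Mdr2-/+ and -0.25, -0.04 and -0.37 in Mdr2-KO livers. This rise of 0.87 (SE 0.16, adjusted p = 0.0283 from limma, 0.53 on the shared slide) stayed below the array centre in every liver, and the CGI was the lowest of its window. Of its 3 probes, 2 were well above background in both channels of all arrays, and 0 were called. The call of this CGI was lost in 10 of the 18 alternative settings that measured it.

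**Figure D3:**
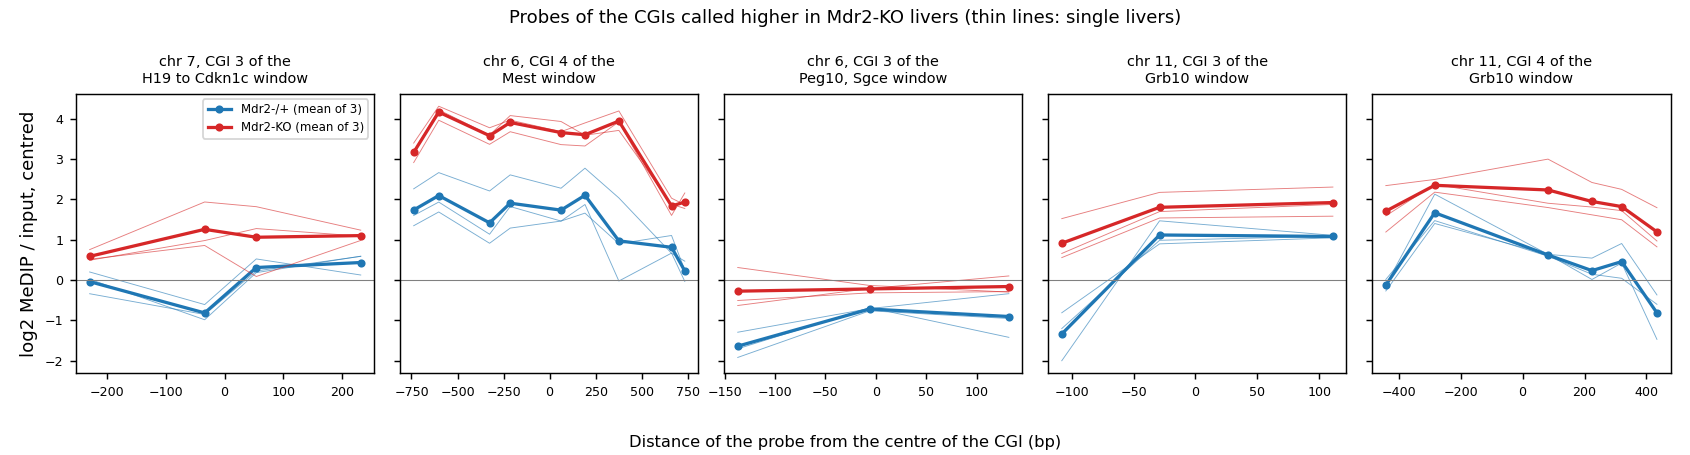
Centred log2 ratio (y axis) of each probe of the 5 CGIs called higher in Mdr2-KO livers against the distance of the probe from the centre of the CGI in bp (x axis), with thin lines for single livers and thick lines for the mean of 3 livers of a genotype. The Mdr2-KO mean lies above the Mdr2-/+ mean at every probe, with differences from 0.50 to 2.97.

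At the 5 called CGIs, picked for their difference in the ratio, most of that difference lay in the MeDIP channel. Neither channel was tested on its own. At the 5 CGIs the log2 MeDIP signal was higher in Mdr2-KO livers by 0.71 to 1.84, whereas the log2 input signal differed by -0.15 to 0.03. All 5 kept a positive difference in each alternative processing in which they were measured, but none was called with slide as a block, with normexp background correction, with the per-CGI test of the study's methods after adjustment, without Mdr2-/+ replicate 3 or without Mdr2-KO replicate 1. Of the 5, limma called 1 without Mdr2-/+ replicate 2, 2 without Mdr2-KO replicate 2 and 4 without Mdr2-KO replicate 3. With the median over the probes of a CGI in place of the mean, the calls at chr6:4853618-4853936 (adjusted p = 0.062 from limma) and chr11:11936447-11936713 (adjusted p = 0.0553) were lost, and with starts up to 1000 bp apart the former was lost at a difference of 0.34. With slide as a block the genotype difference is that of the shared slide alone, a single Mdr2-/+ against a single Mdr2-KO liver. With normexp the differences ranged from 0.09, at chr6:4853618-4853936, to 1.33.

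**Figure D4:**
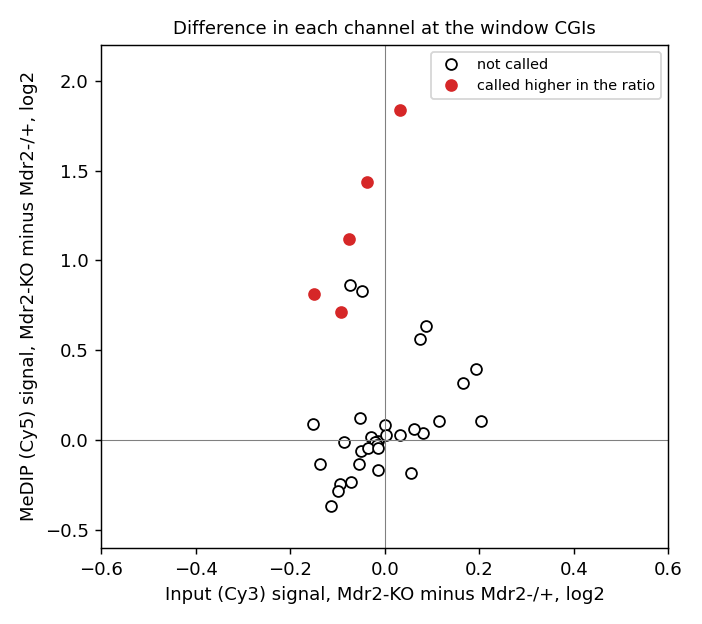
Difference between the genotype means (Mdr2-KO minus Mdr2-/+, log2) of the MeDIP signal (y axis) against that of the input signal (x axis) at the 36 CGIs, with filled points for the 5 CGIs called higher in the ratio. The filled points reach 1.84 on the MeDIP axis and stay within -0.15 and 0.03 on the input axis.

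Besides these calls, a stretch of the H19 to Cdkn1c window had nonoverlapping values without a call. These CGIs are named here after their values were seen. At chr7:143268384-143270916, of 15 probes, Mdr2-/+ livers had 3.47, 2.50 and 2.55 and Mdr2-KO livers 3.86, 3.98 and 3.69. All Mdr2-KO livers exceeded all Mdr2-/+ livers, of which replicate 1 came closest to them. The difference was 1.00 (95% interval 0.42 to 1.58, adjusted p = 0.0663 from limma) but 0.39 on the shared slide. Its 15 probes were all higher in Mdr2-KO livers, by 0.80 to 1.32, 14 of them at an unadjusted p under 0.05 (12.1% of all probes), and 0 were called.

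The CGIs just before it had lower levels and differences of the same sign. At chr7:143254448-143255474 the means were 1.82 ± 0.36 (SD, n = 3) in Mdr2-/+ and 2.76 ± 0.34 (SD, n = 3) in Mdr2-KO livers, a difference of 0.94 (adjusted p = 0.0598 from limma) that was as large on the shared slide (0.94). At chr7:143247134-143247772 they were 1.58 ± 0.37 (SD, n = 3) and 2.14 ± 0.10 (SD, n = 3), a difference of 0.55 (adjusted p = 0.144 from limma) and of 0.23 on the shared slide. None of the 3 CGIs passed the threshold, and all 3 were above in level. On the probe level 1 of the 6 probes of chr7:143254448-143255474 was called (difference 1.36, adjusted p = 0.0362 from limma).

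Elsewhere in the same window, chr7:142468408-142470758 had a difference that varied along its length. Over its 19 probes the Mdr2-/+ livers had -0.48, -0.40 and -0.37 and the Mdr2-KO livers 0.10, 0.56 and -0.10, a nonoverlapping difference of 0.61 (adjusted p = 0.0925 from limma). The probe at its start had a difference of 2.02 and was called (adjusted p = 0.0291), as was the one at -953 bp from its centre (difference 1.30, adjusted p = 0.0453). The 5 probes before its last one had differences between -0.18 and 0.12, and the last was not well above background in the MeDIP channel of any liver. The end with the higher values in Mdr2-KO livers was not the one next to the called CGI at 142473250.

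The 10 remaining CGIs above in level were grouped by an absolute difference under 0.25, so their small differences follow from that choice. At these CGIs no genotype difference was called. They comprised all 6 of the Gnas window and the highest CGI of each other window, held 85 probes, and had levels of 3.22 to 4.40. Differences ran from -0.04 to 0.22, with 95% intervals that together reached from -0.71 to 0.80, and changes within these intervals were not detectable in this fit. On the shared slide the differences ran from -0.75 to 0.11 and 1 of the 10 was higher in the Mdr2-KO liver. The direction at these CGIs moved with the scaling of the arrays: 9 of 10 were above 0 as centred, 10 of 10 with normexp (which moved the median difference of all CGIs to 0.11), 2 with loess, 1 with arrays scaled to equal SD and 0 with quantile normalization (-0.38 to -0.16). Without Mdr2-/+ replicate 1 all 10 were above 0, by 0.34 to 0.49, and limma called 4 of them higher.

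Over all CGIs of the array that were above in level, the median was 4.13, 3.18 and 3.23 in Mdr2-/+ replicates 1 to 3 and 3.89, 3.90 and 3.78 in Mdr2-KO replicates 1 to 3. In the windows it was 4.37, 3.26 and 3.29 against 3.91, 3.80 and 3.68. Mdr2-/+ replicate 1 was thus the highest liver at CGIs of high level in general, and its part in the small differences of the windows was not tested. The median difference of the CGIs above in level was 0.07 in the windows and 0.26 over the array.

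**Figure D5:**
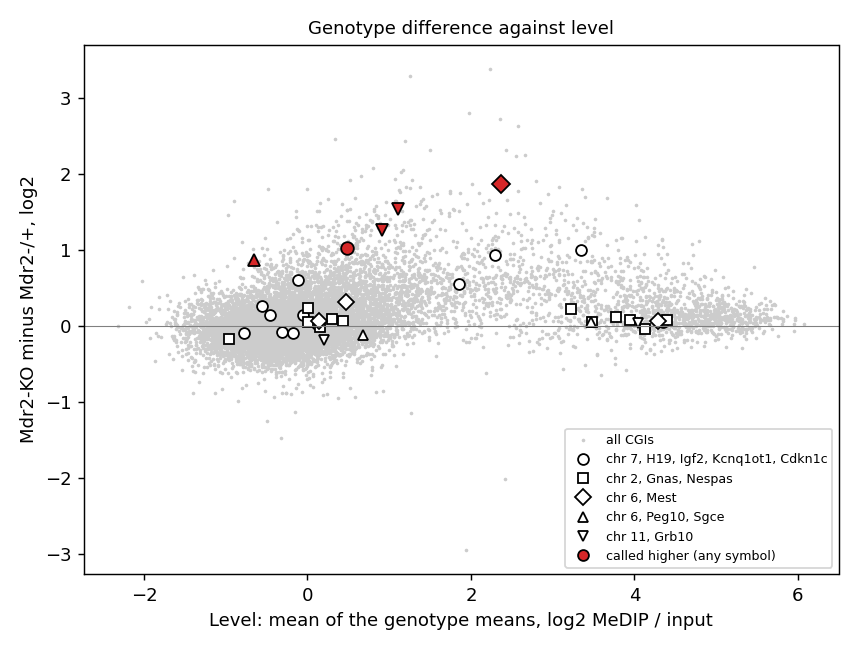
Difference between the genotype means (Mdr2-KO minus Mdr2-/+, log2, y axis) against the level (mean of the genotype means, log2 MeDIP over input, x axis) for all 13821 CGIs (grey) and for the 36 CGIs of the windows, with a symbol for each window and filled symbols for the 5 called CGIs. The called CGIs have levels from -0.66 to 2.37. The 10 uncalled CGIs at levels of 3.22 and more that were grouped by an absolute difference under 0.25 have differences of -0.04 to 0.22.

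As a whole the windows moved by little. The difference was above 0 at 28 of the 36 CGIs, where it was above 0 at 6971 of all 13821, and its median was 0.07, against 0.003 over all CGIs. Of these 28 CGIs, 9 were among the 10 of high level whose direction moved with the scaling of the arrays. By window the median difference was 0.65 in the Grb10 window, where 2 of 4 CGIs were called, 0.19 in the Mest window, 0.15 in the H19 to Cdkn1c window, 0.07 in the Gnas window and 0.05 in the Peg10 window. With quantile normalization the medians of the last 2 were -0.18 and -0.27. The deposited Z-scores covered 31 of the 36 CGIs. They lacked the CGI at 11936447 of the called Grb10 pair and the called CGI of the Peg10 window, at 4853618. The Grb10 median of -0.18 in that setting was the difference at its CGI of highest level. The other CGI of the pair, at 11937235, kept a difference of 1.34 there (adjusted p = 0.000113 from limma). With starts up to 1000 bp apart, which joined the called pair of CGIs, the Grb10 median was 0.03. The window medians in single livers were 0.47, 0.26 and 0.32 in Mdr2-/+ and 1.57, 2.19 and 1.37 in Mdr2-KO livers in the Grb10 window. In the Gnas window they were 1.95, 1.52 and 1.77 against 1.91, 2.05 and 1.79. In the H19 to Cdkn1c window they were -0.06, -0.05 and -0.05 against 0.10, -0.05 and 0.17. The genotypes stood apart in the medians of the Grb10 and Mest windows, by less than 0.01 in those of the H19 to Cdkn1c window, and overlapped in the Gnas and Peg10 windows.

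The Gnas window, with the most CGIs above in level, had no called difference. Its largest absolute difference was at chr2:174081719-174082076, with 0.11, -0.39 and -0.05 in Mdr2-/+ and 0.18, 0.09 and 0.12 in Mdr2-KO livers. The genotypes overlapped there, and the difference was 0.24 (95% interval -0.10 to 0.58, adjusted p = 0.414 from limma). The only CGI of all 36 with lower nonoverlapping values in Mdr2-KO livers was chr11:11708658-11709191 in the Grb10 window, with 0.33, 0.33 and 0.24 in Mdr2-/+ and 0.07, 0.04 and 0.23 in Mdr2-KO livers. Its difference of -0.19 did not pass the test (adjusted p = 0.399 from limma). In the Mest window the CGI of lowest level, chr6:30643555-30643946, had a level of 0.14 and a difference of 0.06 (95% interval -0.21 to 0.33).

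On the level of single probes, 15 of the 267 window probes were called higher, against 1.89% of all probes, and 0 lower (0.122%) in Mdr2-KO livers. The Mest window held 6 of them, the H19 to Cdkn1c window 5 and the Grb10 window 4. In the H19 to Cdkn1c window they lay in the CGIs starting at 142468408 (2 probes) and at 142473250, 142878474 and 143254448 (1 each). Values did not overlap at 62 probes that were higher (14.7%) and 10 that were lower (9.25%). At an unadjusted p under 0.05, 59 probes were higher (12.1%) and 4 lower (4.94%). Of all 267 probes, 184 were higher in Mdr2-KO livers, as were 47024 of the 88646 probes fitted on the whole array. The 4 probes outside CGIs formed a pair at 143274382 on chromosome 7, with means of 1.48 in Mdr2-/+ and 1.53 in Mdr2-KO livers, and a pair at 4852804 on chromosome 6, with means of 0.54 and 0.09, and none of them was called. The probes of the chromosome 6 pair went opposite ways, with differences of -1.18 and 0.30. The probe that was lower in Mdr2-KO livers was well above background in the MeDIP channel of only 1 array.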

How the data were processed

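The files of the 6 arrays held the intensities of both channels as Agilent Feature Extraction wrote them, which the authors deposited without normalization between arrays. The processed signals had been corrected for background and dye by that software, version 10.5.1.1 in the file headers and 8.5.1.1 in the submitters' processing notes. A table of the whole series held the score of each probe on each array that the authors deposited, a Z-score, for 69831 probes, of which 59758 had values in all 6 columns and 206 of these lay in the windows. Its columns were matched to livers by name and used only as an alternative. Probe positions were those of the array design, in mm8.

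From the deposited intensities, the log2 ratio of the processed MeDIP to the processed input signal was computed and the median of its array subtracted. Control spots were dropped, as were probes with an outlier flag in at least 1 array, and probes were averaged over runs of at least 3 probes with starts at most 500 bp apart. Each CGI (13821) and each probe (88646) of the whole array was fitted by genotype with limma 3.58.1 in R 4.3.3, two-sided, adjusted by Benjamini-Hochberg over the whole array, with a threshold of 0.05. Levels were tested with treat at a log2 threshold of 1. Delta Z is the difference of log2 ratios after division by the SD of each array. The labels number the liver samples of each genotype and the study gives 3 males per group, so replicates were taken as separate mice. Same-numbered arrays did not deviate together (correlations of 0.11, -0.09 and 0.12), so no replicate block was used. The functions were tested on simulated data.

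The members, the windows and the lists were chosen with earlier results of these data known. The CGIs named were those called for genotype and, in each window, those with the highest level, the lowest level and the largest absolute difference. Others are named where the text says so or as neighbours of these. A part of the rule that named CGIs by gene could not be used, since no table ties probes to genes in mm8. Alternatives were other normalizations, other definitions of a CGI, blocks, weights, a t-test and leaving out each array. The t-test is the one that the study's methods name in general, applied here to each CGI and adjusted by Benjamini-Hochberg.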

Additional observations from a re-analysis of the deposited data

How the results depend on the processing

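Limma's count of window CGIs called higher was 5 and ranged from 0 to 13 when 1 array was left out (0 without Mdr2-/+ replicate 3 or Mdr2-KO replicate 1, with 8 at an unadjusted p under 0.05 in each, and 13 without Mdr2-/+ replicate 1). It was 0 with slide as a block, which leaves a single liver of each genotype in the contrast (unadjusted, 6 higher and 7 lower passed), normexp background correction (12 and 0) or the adjusted t-test of the methods (8 and 1), 3 or 8 with starts up to 1000 or 250 bp apart, 8 with quantile normalization, 9 with arrays divided by their SD and 11 with array weights. Called window probes numbered 15, ranged from 0 to 44 when 1 array was left out, and were 0 with slide as a block, loess or normexp, 24 with bright probes only, 27 with arrays divided by their SD, 36 with the deposited Z-scores and 52 with array weights. The replicate number as a block, which does not pair these mice, gave 6 CGIs and 0 probes. CGIs above in level numbered 6 with normexp and 22 with the 250 bp limit, and those below 1 with Z-scores or bright probes and 2 with a treat threshold of 0.5. The level at chr2:173973304 became 2.60 with the 1000 bp limit, which joined it to its neighbour.

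Window medians of the difference also moved. Normexp, which moved the median of all CGIs to 0.11, gave 0.30 (Gnas), 0.52 (Mest) and 0.15 (Peg10). Quantile normalization gave -0.18 (Gnas) and -0.27 (Peg10), and division by the SD -0.0786 (Peg10). Z-scores gave 0.0441 (H19 to Cdkn1c), -0.17 (Peg10) and -0.18 (Grb10). Medians over probes gave 0.29 (H19 to Cdkn1c), the 1000 bp limit 0.0343 (Grb10), and at least 5 probes 0.96 (Mest) and 0.0343 (Grb10). Bright probes gave 0.0189 (H19 to Cdkn1c), -0.10 (Peg10) and 0.12 (Grb10). Array weights gave 0.38 (H19 to Cdkn1c), 0.26 (Gnas), 0.47 (Mest) and 0.38 (Peg10). With 1 array left out the medians ranged from 0.11 to 0.34 (H19 to Cdkn1c), -0.0642 to 0.34 (Gnas), 0.10 to 0.48 (Mest), -0.10 to 0.34 (Peg10) and 0.53 to 0.83 (Grb10). The windows held 34 CGIs with the 1000 bp limit, 23 with at least 5 probes and 31 with Z-scores or bright probes, against 36 in the main fit. The medians of these settings are thus taken over other sets of CGIs. With Z-scores or bright probes the called CGIs at chr6:4853618-4853936 and chr11:11936447-11936713 were missing. The Peg10 medians of these settings therefore leave out the only called CGI of that window. Causes of the shifts were otherwise not tested.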

Other observations

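The CGIs within 500 kb on either side of the windows were looked at after the values of the windows were known. They numbered 29, and 1 was called higher in Mdr2-KO livers by limma (4.28% of all CGIs) and 0 lower (0.217%), with a median difference of -0.02. The called CGI lay before the Mest window, at chr6:30125677-30126296, with -0.79 ± 0.18 (SD, n = 3) in Mdr2-/+ and 0.21 ± 0.23 (SD, n = 3) in Mdr2-KO livers (difference 1.00, SE 0.16, adjusted p = 0.0166 from limma). In level, 3 of the 29 were above (14.3% of all CGIs) and 2 below (2.1%), both after the Mest window, with levels of -1.86 at chr6:31147911-31148354 and -1.51 at chr6:31150481-31150865 and no called difference. At chr7:141891575-141892187 the means were 3.82 ± 0.73 (SD, n = 3) and 4.87 ± 0.08 (SD, n = 3), and the difference of 1.04 did not pass the test (adjusted p = 0.112 from limma). At chr7:143984871-143985351, with the highest level of these flanks (4.87), the means were 4.97 ± 0.61 (SD, n = 3) and 4.76 ± 0.17 (SD, n = 3), with an adjusted p of 0.736 from limma.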
